A study of Homo sapiens with 4 samples.

Results

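The genes described here are 6 laminin chain genes (LAMA3, LAMA5, LAMB1, LAMB2, LAMB3 and LAMC1), the hemidesmosomal collagen gene COL17A1 and the proteoglycan genes HSPG2 and AGRN. They were picked by gene symbol, with earlier results of these data known, and all 9 are among the 57746 genes listed. RNA came from 4 human colorectal cancer lines, with 1 library each. METS was recovered from a xenograft's lung metastasis and is labelled epithelial. SA comes from soft agar colonies and SPH from colonospheres (spheres grown in culture), and both carry the label mesenchymal. DLD1, the parental line, is labelled epithelial, and all 4 were kept in the same serum-containing medium. Values are read as RPKM, reads scaled to gene length and library size. The gene lengths used are not given, so comparisons of levels between genes are approximate. With a single library a line, differences between lines could not be checked in replicates.

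The basement membrane is the thin sheet of matrix on which epithelial cells rest. Its laminins are trimers of an alpha, a beta and a gamma chain, assembled inside the cell and secreted as a unit. They share the sheet with collagen IV, nidogen and the proteoglycan perlecan. Epithelial cells hold on to laminins through integrins, dystroglycan and, at hemidesmosomes, the transmembrane collagen XVII. In the gut, laminins with the LAMA5 chain underlie the epithelium of the crypts and the surface, and the laminin that holds LAMA3 and LAMB3 is the ligand of hemidesmosomes and is often abundant at the invading edge of colorectal tumours.

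The libraries were alike in estimated depth. From the step between low values, 1 RPKM of a transcript of 1 kb was worth about 50.7 reads in METS, 48.5 in SA, 53.2 in SPH and 53.7 in DLD1. With gene lengths of 4.69 to 18.1 kb, the lowest level among these genes (COL17A1 in METS) rested on about 412 reads and the highest (AGRN in DLD1) on about 37782. Counting error alone was then at most 4.93% of a level (COL17A1 in METS), while the spread between cultures of a line is unknown. In bulk RNA, fewer cells that express a gene and less RNA per cell cannot be told apart. The epithelial marker EPCAM stood at 263 RPKM in METS, 222 in SA, 231 in SPH and 212 in DLD1, but the colon keratin KRT20 at 0.50, 4.06, 3.18 and 21.9 RPKM. KRT20 was thus under 1 RPKM in METS and far higher in DLD1 than in the 3 derived lines. KRT8, KRT18 and VIL1 were, like EPCAM, highest in METS. CDX2 was, like KRT20, lowest in METS, and CDH1 was lowest in SA. The 7 colon epithelium markers summed to 2346, 1395, 1461 and 1880 RPKM in METS, SA, SPH and DLD1. Of 7 fibroblast markers none reached 1 RPKM in a line, and their summed level was 0.30, 0.23, 0.49 and 0.22 RPKM in METS, SA, SPH and DLD1. The summed level was 1.08, 1.37, 1.34 and 1.28 RPKM for the endothelial markers listed (CLDN5 reached 1 RPKM and CDH5 and KDR were listed at 0). It was 1.90, 0.83, 1.31 and 1.35 RPKM for leukocyte markers (CD14 reached 1 RPKM, and PTPRC was listed at 0). Of the smooth muscle markers, which summed to 0.66, 1.80, 1.76 and 1.89 RPKM, only TAGLN reached 1 RPKM, at 0.53 in METS, 1.32 in SA, 1.25 in SPH and 1.56 in DLD1. Summed smooth muscle and endothelial markers, KRT20 and CDX2 were thus lowest in METS, as were 8 of the 9 genes. The summed colon epithelium markers were highest there, with KRT8 at 1084 and KRT18 at 865 of the 2346 RPKM in METS. The part of these markers in the results was not tested.

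RefSeq windows of 250 bases before to 50 bases after a gene's start were at hand for 8 of the 9 genes (10 windows, build GRCh38.p14). The 250 bases upstream are shown for 4 genes on which the results turn. LAMA3 is the 1 gene of the set that was highest in METS, LAMB3 encodes its partner chain, LAMB1 had the lowest METS fold against DLD1 on the scale of log2(RPKM + 1), and COL17A1 varied most between lines. Sequences run 5′ to 3′ on the gene's strand, and capitals mark AP-1 letters (TGANTCA), GC box letters (GGGCGG or its reverse complement CCGCCC) and TATA box letters (TATAAA or its reverse complement).
LAMA3 (chr18:23872770-23873019, plus strand): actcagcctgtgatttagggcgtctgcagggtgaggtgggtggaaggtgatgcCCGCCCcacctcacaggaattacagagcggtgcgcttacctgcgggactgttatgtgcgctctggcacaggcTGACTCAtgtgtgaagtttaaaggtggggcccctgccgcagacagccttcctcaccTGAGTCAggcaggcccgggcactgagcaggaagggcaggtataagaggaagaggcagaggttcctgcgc
LAMB3 (chr1:209651375-209651624, minus strand): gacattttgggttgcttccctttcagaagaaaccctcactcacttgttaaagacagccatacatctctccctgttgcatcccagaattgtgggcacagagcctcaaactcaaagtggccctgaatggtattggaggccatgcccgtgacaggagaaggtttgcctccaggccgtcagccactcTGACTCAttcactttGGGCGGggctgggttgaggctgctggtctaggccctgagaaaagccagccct
LAMB1 (chr7:108003162-108003411, minus strand): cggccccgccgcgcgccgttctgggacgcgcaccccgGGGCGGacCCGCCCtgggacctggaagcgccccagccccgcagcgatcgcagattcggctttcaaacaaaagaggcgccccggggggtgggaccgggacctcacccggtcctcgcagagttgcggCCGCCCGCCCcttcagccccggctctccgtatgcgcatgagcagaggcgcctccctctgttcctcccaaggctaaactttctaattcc
COL17A1 (chr10:104085881-104086130, minus strand): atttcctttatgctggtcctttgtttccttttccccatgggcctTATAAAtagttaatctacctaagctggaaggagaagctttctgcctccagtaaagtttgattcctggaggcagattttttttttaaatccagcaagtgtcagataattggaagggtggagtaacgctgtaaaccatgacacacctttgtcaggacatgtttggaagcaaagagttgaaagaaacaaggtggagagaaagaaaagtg

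LAMA3 carried the AP-1 letters at 2 places, with the first base 125 and 69 bases before the start, and LAMB3 at 1 place, 67 bases before the third of its 3 listed starts. No other window of the set held them, against 7.71% of all 35116 windows and 5.07% of the 11789 windows of genes in the class test described below. GC box letters were found for 7 of the 8 genes, in 15786 of all windows and in 8017 of the windows of genes in the class test, with COL17A1 as the exception. Of the 8 genes with a window, COL17A1 alone held TATA box letters (first base 206 bases before the start). Of all windows 11.5% hold them, as do 5.64% of those of genes in the class test. These matches describe the letters in the windows only. The LAMA3 window lies at the start of a short form. Of 10 coding LAMA3 transcripts in GENCODE 29, 1 starts within 100 bases of it and is 5.01 kb long, against 10.7 kb for the longest. The deposited LAMA3 value pools the long and the short forms.

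**Figure D1:**
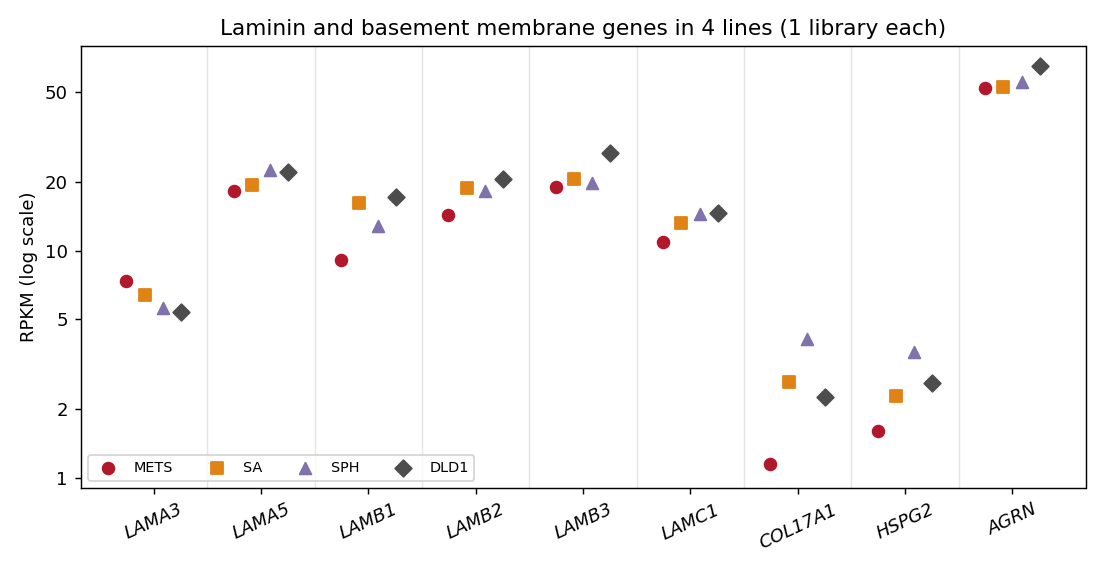
RPKM (log scale) of the 9 genes in METS, SA, SPH and DLD1, 1 library a line, 1 point a library. METS is the lowest point for 8 genes and the highest for LAMA3, and COL17A1 spans the widest range, from 1.15 RPKM in METS to 4.09 in SPH.

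The alpha chains differed in the order of the lines. LAMA3, the alpha chain of the hemidesmosomal laminin, stood at 7.39 RPKM in METS, 6.40 in SA, 5.57 in SPH and 5.36 in DLD1. All 3 derived lines were thus above DLD1, with SPH close to it. The log2 fold against DLD1, on the scale of log2(RPKM + 1), was 0.40 in METS, 0.22 in SA and 0.05 in SPH, and 4.53% of the 11275 genes compared in METS had a fold at least as high. LAMA5, the alpha chain of the main laminin of adult epithelia, stood at 18.4 RPKM in METS, 19.45 in SA, 22.7 in SPH and 22.3 in DLD1. SPH and DLD1 lay together and METS and SA lay below them, with folds of -0.27 in METS, -0.19 in SA and 0.02 in SPH. LAMA5 stood at 2.49 times LAMA3 in METS, 3.04 times in SA, 4.07 times in SPH and 4.16 times in DLD1.

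LAMB1, the beta chain of the laminins of embryonic and many adult basement membranes, had the widest range among the 6 laminin genes of the set. It stood at 9.11 RPKM in METS, 16.3 in SA, 12.9 in SPH and 17.2 in DLD1. METS was well below the other 3 lines, and SA was close to DLD1. The fold against DLD1 was -0.85 in METS, -0.08 in SA and -0.39 in SPH, and 1.38% of genes had a METS fold that low or lower. LAMB2, a beta chain prominent at the neuromuscular junction and the kidney filter, stood at 14.4 RPKM in METS, 18.8 in SA, 18.3 in SPH and 20.8 in DLD1. METS was again lowest, with folds of -0.50 in METS, -0.14 in SA and -0.17 in SPH. LAMB3, the beta chain that pairs with LAMA3, stood at 19.2 RPKM in METS, 20.7 in SA, 19.9 in SPH and 27.04 in DLD1. For LAMB3 the 3 derived lines lay close together and all below DLD1, with folds of -0.47 in METS, -0.37 in SA and -0.42 in SPH.

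LAMC1, the gamma chain of most laminins, stood at 10.98 RPKM in METS, 13.3 in SA, 14.5 in SPH and 14.7 in DLD1. SPH was level with DLD1 (fold -0.01), SA lay slightly below (-0.13) and METS lowest (-0.39).

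Because RPKM is scaled to length, the chains could be set against each other, but the gene lengths used are not given. LAMA3 pools forms that include 1 of 5.01 kb and 1 of 10.7 kb. Its shares and its ratios to LAMA5 and LAMB3 thus also depend on the length used and on the mix of forms, which was not tested. The summed beta chains stood at 42.7 RPKM in METS, 55.8 in SA, 51.1 in SPH and 65.05 in DLD1. METS was thus at 0.657 of DLD1 for the beta chains. The summed alpha chains differed little between lines, at 28.45, 26.6, 29.05 and 28.3 RPKM in METS, SA, SPH and DLD1. Within that sum, LAMA3 made up 25.98% in METS, 24.0% in SA, 19.2% in SPH and 18.9% in DLD1.

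The LAMA3 level was 0.385 of the LAMB3 level in METS, 0.310 in SA, 0.280 in SPH and 0.198 in DLD1. METS was highest and DLD1 lowest in this ratio. LAMB3 made up 44.95% of the summed beta chains in METS, 37.0% in SA, 39.0% in SPH and 41.6% in DLD1. These ratios have no replicate error, and those with LAMA3 carry the limit of its pooled forms.

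LAMA2, the alpha chain known from muscle and nerve, was named after its values were seen. It stood at 2.66 RPKM in METS, 0.68 in SA, 0.73 in SPH and 0.55 in DLD1, and made up 9.35% of the summed alpha chains in METS and 1.94% in DLD1. METS alone reached 1 RPKM, so LAMA2 did not enter the class test described below. The fibroblast markers DCN and PDGFRA were listed at 0 in all 4 lines. COL1A1 stood at 0.02 RPKM in METS and 0.10 in DLD1, and LUM at 0.18 RPKM in METS and was listed at 0 in the other lines. The chains LAMA1, LAMA4, LAMB4 and LAMC3 did not exceed 0.12 RPKM in a line.

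**Figure D2:**
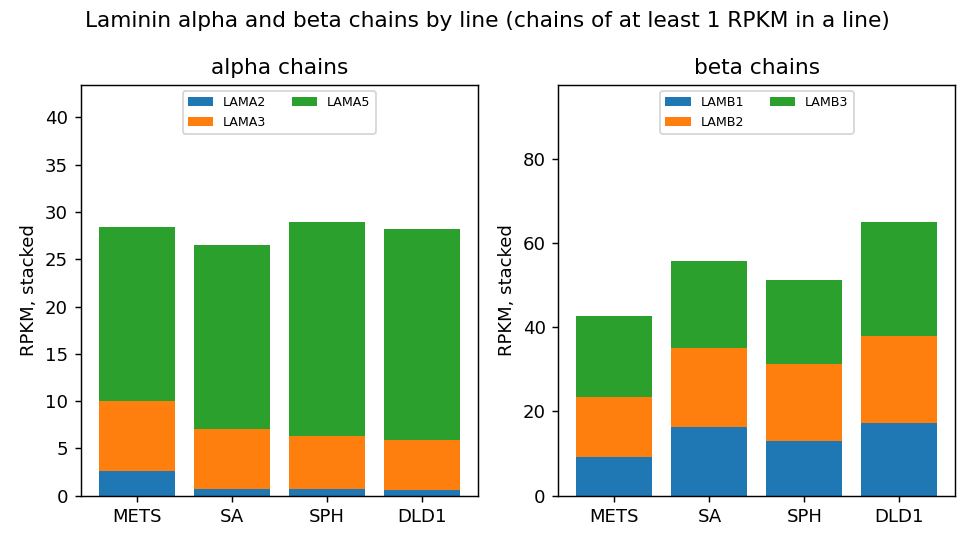
Stacked RPKM of the laminin alpha and beta chains that reached 1 RPKM in a line, for METS, SA, SPH and DLD1 (1 library each). With LAMA1 and LAMA4 (not drawn) the alpha total stays between 26.6 and 29.05 RPKM, whereas the beta total is lowest in METS (42.7 RPKM) and highest in DLD1 (65.05 RPKM).

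COL17A1, the transmembrane collagen that ties hemidesmosomes to laminin, stood at 1.15 RPKM in METS, 2.65 in SA, 4.09 in SPH and 2.26 in DLD1. The highest line held 3.56 times the level of the lowest, the widest range of the 9 genes. SPH was above and METS below every other line, with SA and DLD1 near each other. Against DLD1 the fold was -0.60 in METS, 0.16 in SA and 0.64 in SPH. The METS level was 0.509 of the DLD1 level as RPKM, lower than the same ratio for LAMB1 (0.529), and the pseudocount of 1 shrinks the fold of so low a gene. On log2(RPKM + 1) METS lay just beyond 1.5-fold (0.585 on the log2 scale). The fold was -0.92 with a pseudocount of 0.1 and -0.24 with 5, -0.5848 with median-of-ratios factors and -0.49 after a correction for GC content, and the last 3 fell short of 1.5-fold. Against SPH the fold of METS was -1.24, and 0.957% of 11495 genes had a fold that low or lower.

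HSPG2 encodes perlecan, which links the laminin and collagen IV layers and binds growth factors through its heparan sulfate. It stood at 1.61 RPKM in METS, 2.28 in SA, 3.59 in SPH and 2.62 in DLD1. The order of the lines was near that of COL17A1, with SPH highest and METS lowest. The folds against DLD1 were -0.47 in METS, -0.14 in SA and 0.34 in SPH. AGRN encodes agrin, a heparan sulfate proteoglycan that binds laminin and dystroglycan, and was the most abundant of the set, at 52.1 RPKM in METS, 52.65 in SA, 55.6 in SPH and 65.4 in DLD1. The 3 derived lines were close to each other and below DLD1, with folds of -0.32, -0.31 and -0.23 in METS, SA and SPH. AGRN stood at 32.4 times HSPG2 in METS, 23.1 times in SA, 15.5 times in SPH and 24.96 times in DLD1.

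**Figure D3:**
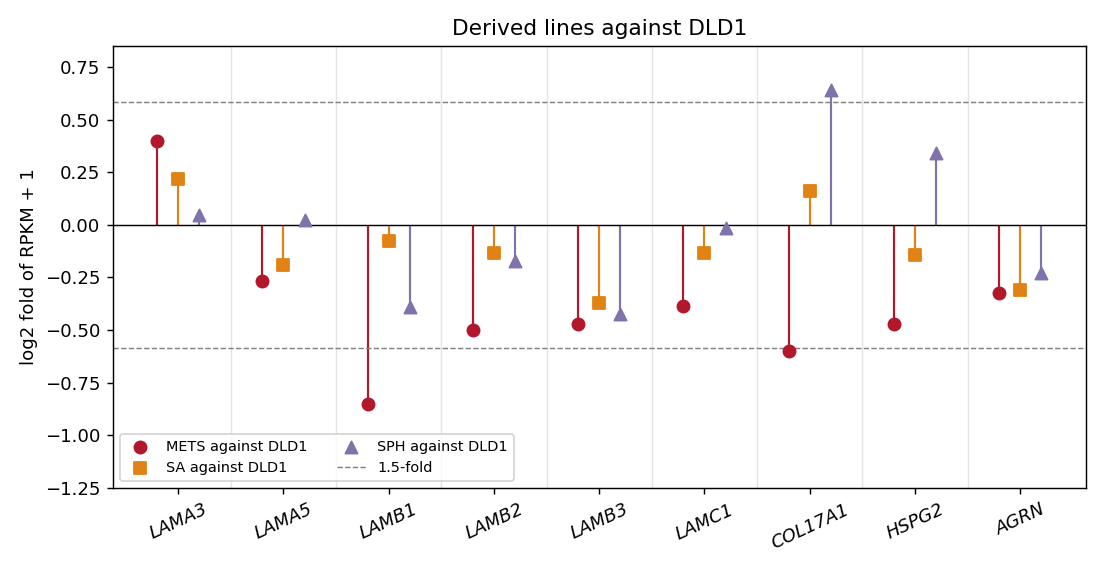
Log2 fold of RPKM + 1 of METS, SA and SPH against DLD1 for the 9 genes, 1 library a line, with dashed lines at 1.5-fold. LAMB1 (-0.85) and COL17A1 (-0.60) pass the lower line in METS and COL17A1 (0.64) passes the upper line in SPH.

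Set against DLD1 as a group, the genes lay lower in METS. Since they were chosen with earlier results of these data known, the shares beside all genes are a description only. In METS, 8 of 9 were below DLD1, against 54.9% of the 11275 genes compared, with LAMA3 as the exception. Their median fold was -0.47, against -0.03 over all genes. By the rule of at least 1.5-fold, 2 of 9 (LAMB1 and COL17A1) were lower in METS, where 3.22% of all genes were, and none was higher, where 2.19% of all genes were. No gene of the 9 reached 2-fold on that scale. With a pseudocount of 0.1 the count was 3, with HSPG2 (-0.67) added. The share of all genes past 1.5-fold in either direction was then 9.03%, against 5.41% in the main setting. After a correction for GC content, added after seeing the data, the count was 1 (LAMB1, -0.80), where 4.91% of all genes passed in either direction. The median of the 9 genes was then -0.32, with the transcripts of LAMA5, HSPG2 and AGRN at 65.3%, 63.5% and 66.4% GC.

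In SA 7 of 9 genes were below DLD1, against 44.4% of 11367 genes, with a median fold of -0.14 against 0.03 over all genes. LAMB3 (-0.37) and AGRN (-0.31) were lowest and LAMA3 (0.22) and COL17A1 (0.16) lay above DLD1. No member reached 1.5-fold, which 2.82% of all genes did in either direction. In SPH 5 of 9 were below DLD1, against 43.6% of 11446 genes, with a median of -0.01 against 0.03. COL17A1 was the 1 member that reached 1.5-fold, and it was higher, as were 2.59% of all genes. METS, SA and SPH share the DLD1 library, so an error in that library would move the folds of all 3 together.

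METS was also compared with the mesenchymal lines directly, which leaves the DLD1 library out. LAMB1 stood at -0.77 against SA and -0.46 against SPH, and COL17A1 at -0.76 and -1.24. HSPG2 stood at -0.33 against SA and -0.81 against SPH, and LAMA3 above both, at 0.18 and 0.35. METS was below SA in 8 of 9 genes and below SPH in 8 of 9, against 59.1% and 58.8% of all genes. After the correction for GC content that was 7 of 9 against SA and 6 of 9 against SPH. AGRN then lay above SA (0.033) and SPH (0.11) and LAMB3 above SPH (0.093), and the median against SPH was -0.18 in place of -0.33. The median over all genes was then -0.0039 against SA and -4.61e-04 against SPH, so the shares of 59.1% and 58.8% do not apply to those counts. By the 1.5-fold rule 2 of 9 genes were lower in METS than in SA (LAMB1 and COL17A1), where 3.75% of all genes were. Against SPH 2 of 9 were lower (COL17A1 and HSPG2), where 5.77% of all genes were. LAMB3 (-0.10 and -0.05) and AGRN (-0.01 and -0.09) differed little between METS and the mesenchymal lines. METS held the lowest value of the 4 lines for 8 of the 9 genes, as it did for 39.4% of 11262 genes. With median-of-ratios factors that was 6 of 9, as LAMB3 and AGRN were no longer lowest in METS, against 33.1% of genes. DLD1 held the highest value for 5 of 9 genes, as it did for 21.6% of genes.

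By label, SA and SPH form the mesenchymal class, with METS and DLD1 as the epithelial class. None of the 9 genes passed the class test (limma-trend over 11262 genes, Benjamini-Hochberg adjusted p under 0.05), which 0.355% of all genes passed. All 9 entered it, and 1 of 9 (COL17A1) reached an unadjusted p under 0.05, as 8.65% of all genes did. With no filter that count was 0 of 9, where 2208 of 24097 genes reached it. Leaving out a library leaves 1 line in a class, so only folds are given. The COL17A1 fold was 0.40 without METS, 0.94 without SA, 0.46 without SPH and 1.003 without DLD1. LAMB3 was at -0.40 without METS. Without the trend in limma none of the 9 passed adjusted p 0.05 either. COL17A1 had the largest class fold, 0.70 ± 0.25 (SE, 2 lines a class, adjusted p = 0.518 by limma-trend), with SA at 2.65 RPKM and SPH at 4.09, against METS at 1.15 and DLD1 at 2.26. It was the 1 gene of the 9 with SA and SPH both above METS and DLD1, which held for 24.7% of all genes. The share of all genes with SA and SPH both below METS and DLD1 is not given here.

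HSPG2 followed at 0.34 ± 0.22 (adjusted p = 0.774, limma-trend) and LAMB1 at 0.19 ± 0.28 (adjusted p = 0.918, limma-trend). For both, DLD1 lay above SA or SPH, so the classes overlapped. LAMB3, at -0.16 ± 0.17, was the lowest (adjusted p = 0.871, limma-trend), with METS at the level of SA and SPH and DLD1 alone above them. The median class fold of the 9 genes was 0.10, against 0.04 over all genes. Each class holds 2 separate lines and no repeated cultures, so the p-values measure how far those lines differ, and a missed threshold does not show that the classes are alike.

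**Figure D4:**
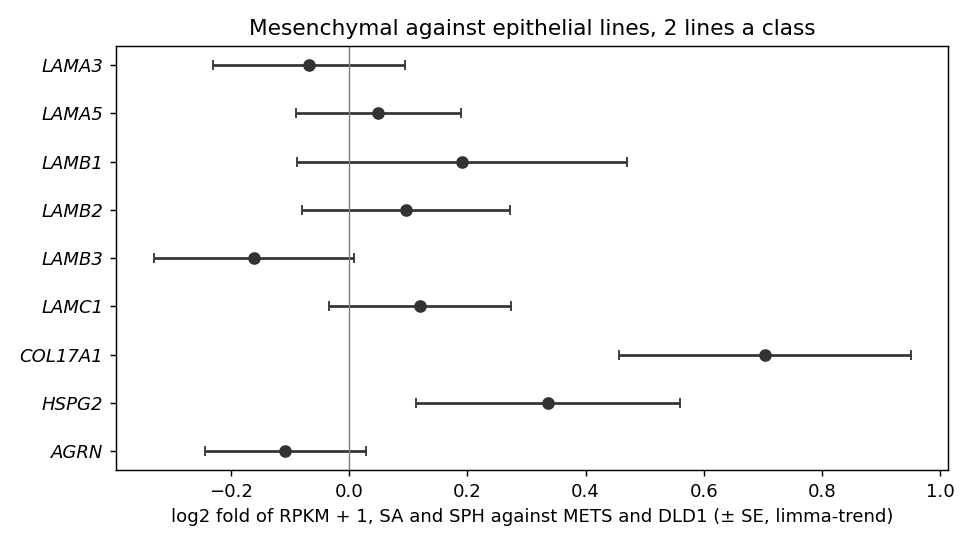
Class fold (log2 of RPKM + 1, SA and SPH against METS and DLD1) of the 9 genes with its SE from limma-trend, 2 lines a class. COL17A1 (0.70) lies farthest from 0, and no gene passes adjusted p 0.05.

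The other genes of the basement membrane and its receptors were read from 7 lists, also chosen with earlier results of these data known. The lists hold 85 genes, of which 84 are listed and 54 entered the class test. None of the 54 passed it (limma-trend), and 5 reached an unadjusted p under 0.05, near the 8.65% of all genes that did. Without the DLD1 library METS alone stands for the epithelial class and is assumed to vary like SA and SPH, so the fit compares METS with those lines. In it 3 of 54 passed (BCAM, ITGA6 and SDC4, with folds of 1.53, 0.96 and -0.75), as did 305 of 11262 genes, against 40 with all 4 libraries. Of the collagen IV genes, which encode the network that laminins join, COL4A1 stood at 1.97, 1.87, 2.56 and 1.37 RPKM in METS, SA, SPH and DLD1 and COL4A2 at 1.97, 2.51, 2.83 and 2.92 RPKM. COL4A3, COL4A5 and COL4A6 were listed at 0 in all lines, and the nidogens NID1 and NID2, which bridge laminin and collagen IV, did not exceed 0.18 RPKM. COL7A1, of the anchoring fibrils, had a class fold of 0.31 ± 0.13 (adjusted p = 0.585, limma-trend).

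Among minor components, 3 of 11 genes entered the class test, and their folds were all negative. The netrin NTN4, which binds laminin, was at 3.85 RPKM in SA and 5.38 in SPH, against 6.39 in METS and 7.19 in DLD1 (-0.48 ± 0.16, adjusted p = 0.482, limma-trend). FRAS1 (-0.46) and TINAGL1 (-0.42) had like folds and did not pass. NTN4 and TINAGL1 lay at -0.76 and -0.77 in SA against DLD1, beyond 1.5-fold, and 1.40% of all genes were that much lower in SA.

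Of 14 receptor and hemidesmosome genes 12 entered the class test. BCAM, a receptor for laminins with the LAMA5 chain, stood at 9.35 RPKM in METS, 24.1 in SA, 34.3 in SPH and 25.2 in DLD1. ITGA6, an integrin subunit that binds laminin in hemidesmosomes, stood at 20.2 RPKM in METS, 37.8 in SA, 42.7 in SPH and 41.1 in DLD1. Both were lowest in METS by a wide margin, with folds against DLD1 of -1.34 and -0.99. ITGB4, the partner of ITGA6, stood at 28.2 RPKM in METS, 22.4 in SA, 21.4 in SPH and 31.6 in DLD1, and was thus lowest in SA and SPH. The class folds of ITGB4 and the syndecan SDC4 were -0.43 ± 0.11 and -0.61 ± 0.13 (adjusted p = 0.362 and 0.303, limma-trend). Of the 12 receptor genes 9 were below DLD1 in METS, with a median of -0.14, and 3 (BCAM, ITGA6 and ITGA3) by at least 1.5-fold, against 54.9% and 3.22% of all genes. Being below DLD1 was not particular to METS. In SA and in SPH 10 of the 12 were below DLD1, with medians of -0.11 and -0.23, against 44.4% and 43.6% of all genes.

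Dystroglycan carries a sugar chain to which laminin and agrin bind, and 11 genes of that glycosylation were compared. In METS 8 of 11 were below DLD1 (median -0.11, where 54.9% of all genes were below), and none was 1.5-fold lower, as 3.22% of all genes were. ISPD had the largest class fold (0.45 ± 0.17, adjusted p = 0.536, limma-trend), with SA at 1.40 RPKM and SPH at 1.55, against METS at 0.57 and DLD1 at 1.08, followed by B3GALNT2 (0.14), TMEM5 (0.07) and POMT1 (0.07). Of 14 genes that make or release heparan sulfate, the sugar of perlecan and agrin, 10 were below DLD1 in METS (median -0.14), and none reached 1.5-fold, beside the same shares of all genes. Below DLD1 lay 2 of the 11 glycosylation genes and 8 of the 14 heparan sulfate genes in SA, and 5 genes of each list in SPH. Of all genes 44.4% lay below DLD1 in SA and 43.6% in SPH. GLCE (0.23), EXT2 (0.17), B4GALT7 (0.15) and HS2ST1 (0.15) had the largest class folds of the heparan sulfate list.

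The list of collagen and laminin maturation had the lowest METS median of the lists with over 3 genes, -0.39, with 9 of 11 genes below DLD1, where 54.9% of all genes were. In SA and in SPH 8 of the 11 were below DLD1 (medians -0.13 and -0.17), where 44.4% and 43.6% of all genes were. PLOD1, a collagen lysyl hydroxylase, stood at 15.6 RPKM in METS, 23.4 in SA, 26.6 in SPH and 26.3 in DLD1, and the membrane protease MMP14 at 0.61, 1.74, 1.64 and 1.88 RPKM. PLOD1 (-0.72) and MMP14 (-0.84) were the 2 of the list beyond 1.5-fold in METS, where 3.22% of all genes were that much lower. PLOD2, a related hydroxylase, stood at 7.86, 8.45, 7.91 and 11.1 RPKM in METS, SA, SPH and DLD1, and PCOLCE, an enhancer of procollagen cleavage, at 1.58, 1.70, 2.35 and 1.53 RPKM.

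**Figure D5:**
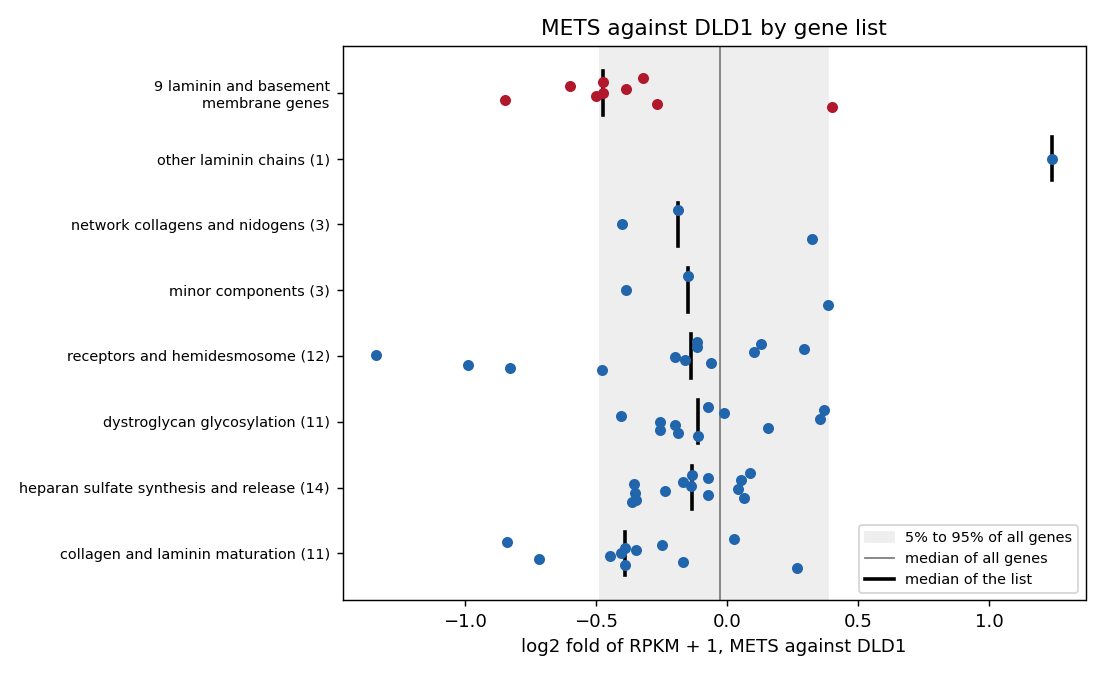
Log2 fold of RPKM + 1 of METS against DLD1 for each gene of at least 1 RPKM in either line, by list, with the list's median (black bar), the median of all genes (grey line) and the range from 5% to 95% of all genes (shaded). The median of the 9 genes is -0.47 and that of collagen and laminin maturation -0.39, against -0.03 over all genes.

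Likeness was measured as the root mean square distance of log2(RPKM + 1) over the 4 libraries, each gene centred on its mean. Within the set LAMA5 and LAMC1, chains of the same trimers, were the closest pair (0.06), followed by LAMB2 and LAMC1 (0.07) and LAMB3 and AGRN (0.07). LAMA3 and COL17A1 were farthest apart (0.57). The search over the genes tested left out clone-type names, ribosomal protein and histone genes, LINC, antisense and small RNAs, and names starting with MT. Among the rest, TEF, HOTTIP and TP53I11 were nearest to COL17A1 (0.02 each) and SESN2, PLOD2 and MYH9 nearest to LAMB3 (0.02 each). GLG1, AURKB and COL4A2 were nearest to LAMC1 (0.00, 0.01 and 0.01). With 4 libraries and 11262 genes, near matches of this kind are a description only.

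Other genes overlap the exons of some of these genes, and whether counting used strand is not stated. ADRM1, at 56.2 to 65.1 RPKM, shares 1.71% of the LAMA5 exon bases and DLD 0.860% of those of LAMB1. LDLRAD2 shares 11.7% of those of HSPG2 but did not exceed 0.03 RPKM. AL645608.5 shares 3.74% of the AGRN exon bases and AC005046.1 2.715% of those of LAMB1, and neither name was matched to a value. Reads of these stretches cannot be told apart.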

How the data were processed

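Per the labels' protocols, total RNA was isolated with a kit and sequenced from libraries made by a standard Illumina protocol. The deposited table holds 1 value per gene and line, read as RPKM computed by the authors, because the values are not whole and the column sums differ between lines. The submitters' processing notes name hg19. Neither an aligner nor a counting tool, annotation or strand setting is given in the sources used here. A value of 0 was read only as listed at 0.

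No rescaling was applied, and tests and folds used log2(RPKM + 1). Pairs of lines were compared over genes with at least 1 RPKM in the higher line, counted by a rule of at least 1.5-fold. The class test was limma-trend in limma 3.58.1 under R 4.3.3, on every gene that reached 1 RPKM in 2 or more libraries, with p-values adjusted by Benjamini-Hochberg, and was tested on simulated data. No test is possible between 2 single libraries. The 9 genes and the lists were chosen with earlier results of these data known. All 9 are named, with up to 4 genes per list by class fold. B4GAT1 and PECAM1 were not analysed here, and 1 gene of the lists is not reported here. Gene lengths and GC content came from GENCODE 29 and promoter sequences from RefSeq (GRCh38.p14), used for sequences and names only. Reads per RPKM were found as the common step of low values in genes of 200 to 500 bases, and over 3 length windows the estimates ran from 48.2 to 53.8. Alternatives were other pseudocounts (0.1 and 5), filters (none, or 5 RPKM), scaling by median-of-ratios factors, fold rules (2-fold and 4-fold), limma without its trend, and each library left out in turn. A GC correction (lowess, span 0.3, Python 3.11.15 with statsmodels 0.14.6) was added after seeing the data.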

Additional observations from a re-analysis of the deposited data

Results flagged for a closer look

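COL17A1 stood out because METS differed from DLD1 in one direction and SA and SPH in the other. Its level was 1.15 RPKM in METS, 2.65 in SA and 4.09 in SPH, against 2.26 in DLD1, with log2 folds of -0.60, 0.16 and 0.64. The difference between the directions was not tested, since each line has 1 library and all 3 folds share the DLD1 library. No other gene of the 9 showed that pattern. Among 11262 genes, 24.7% had SA and SPH both above METS and DLD1. That share does not ask whether METS lay below DLD1, and it leaves out the mirrored order. The share of genes with the pattern itself is not given here. Of 11367 genes, 19.5% had an SA fold against DLD1 at least as high as that of COL17A1.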

How the results depend on the processing

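No paired analysis was possible because each line has 1 library and the labels carry no replicate numbers. None of the 9 genes passed the class test under any of the alternatives (limma-trend or limma without trend), including leaving out each library (0 to 0 of 9), which leaves 1 line in a class that is assumed to vary like the others. Of the basement membrane lists 0 to 3 genes passed when a library was left out, the 3 without DLD1 (where METS alone stands for the epithelial class and 305 of 11262 genes passed, against 40 with all libraries), and none under the other alternatives. Leaving out each library in turn gave class folds from -0.27 to 0.13 for LAMA3, -0.084 to 0.18 for LAMA5, -0.23 to 0.62 for LAMB1, -0.15 to 0.35 for LAMB2, -0.40 to 0.076 for LAMB3, -0.073 to 0.31 for LAMC1 and -0.27 to 0.054 for AGRN. The sign of LAMA3, LAMA5, LAMB1, LAMB2 and LAMC1 turned without METS, that of LAMA3 (0.019) and LAMA5 (-0.055) without SPH, and that of LAMB3 and AGRN without DLD1, and the cause was not tested. COL17A1 (0.40 to 1.003) and HSPG2 (0.094 to 0.58) kept their sign. Counts of genes past the fold rule were small and moved by 1 or 2. The share of all genes past the rule in either direction moved as well. In METS against DLD1 it was 5.41% in the main setting, 9.03% with a pseudocount of 0.1 and 1.56% with 5. At 2-fold it was 1.41% and at 4-fold 0.124%. For METS against DLD1 the count was 2, with 1 after scaling by median-of-ratios factors, the GC correction, a pseudocount of 5 or a minimum of 5 RPKM, and 0 at 2-fold and 4-fold. For METS against SA it was 2, with 1 under a pseudocount of 5 or a minimum of 5 RPKM and 0 at 2-fold and 4-fold. The share of all genes in either direction was 6.49%, and 1.89%, 5.16%, 1.92% and 0.228% under those settings in that order. For METS against SPH it was 2, with 0 under a pseudocount of 5, a minimum of 5 RPKM or the 4-fold rule and 1 at 2-fold. The share of all genes in either direction was 8.86%, and 2.44%, 7.06%, 0.322% and 2.64% under those settings in that order. For SPH against DLD1 it was 1, with 0 under a pseudocount of 5, a minimum of 5 RPKM and the 2-fold and 4-fold rules. The share of all genes in either direction was 4.57%, and 0.935%, 3.12%, 1.26% and 0.114% under those settings in that order. A minimum of 5 RPKM leaves COL17A1 and HSPG2 out, and a larger pseudocount shrinks the folds of low genes by construction. The fold of LAMB1 in METS against DLD1 ran from -0.66 to -0.91 over the other pseudocounts, filters, scaling and the GC correction.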
